A study of Homo sapiens with 6 samples.

Results

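Long annotated productive isoforms are the spliced mRNA models that carry an Ensembl transcript identifier, belong to a protein-coding gene, keep an open reading frame with no premature stop, and are at least 2500 nt long. There were 1319 of them among the 13208 isoforms of the isoform table, and 5313 isoforms met every criterion but length. Their median length was 3400 nt, the middle 50% lay between 2860 and 4316 nt, and the longest had 13490 nt. They come from 1199 genes. The rule has a length threshold: EIF4H, MTO1 and TUBB each had an isoform of 2500 nt and were inside, while isoforms of DDX50 and ORC3 had 2499 nt and were outside. RNA came from K562, a wild-type, untreated human line established from a chronic myeloid leukemia. Extracellular vesicles (EVs) purified from conditioned medium gave 3 libraries and whole cells (WC) gave 3 libraries, all sequenced on nanopores after poly(A)-primed reverse transcription and PCR. All 6 libraries share the 1 cell line, so no other donor or cell type is represented. The preparation was a size-based one, and no source used here sorts vesicles by their origin.

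EVs are membrane-bound particles that cells release, and the mRNA in them is a skewed sample of the mRNA of the cell. Short mRNAs, such as those of ribosomal proteins, have often been found over-represented in them and long mRNAs under-represented. A long mRNA can be long through its coding part, its 3′ untranslated region (UTR) or both. mRNAs for secreted and membrane proteins are translated at the endoplasmic reticulum (ER), where a hydrophobic stretch of the growing protein is read as a signal peptide or becomes a membrane-spanning helix. mRNAs for cytosolic and nuclear proteins are mostly translated on free ribosomes. The codons of the strongly hydrophobic amino acids phenylalanine, leucine, isoleucine, methionine and valine all have T (U in the mRNA) in the middle, whereas both lysine codons are made of A alone or of A and G.

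The coding sequences below show the kinds of stretch behind 2 features described further on, a hydrophobic stretch in the encoded protein and its lysine content. Each is 30 bases of 10 whole codons inside 1 coding exon, in hg38, read 5′ to 3′ in the sense of the mRNA. The first 4 are of genes that were low in EVs, from the most hydrophobic window of the protein, with codons that have T in the middle in capitals.
ITGA2B: ggcCTGCTGCTGCTCaccATCCTGGTCCTG
TMEM154: ATACTGATGGTGTTAATCccaTTGATTTTA
GANAB: TTGGTACTGgctTTTTTAgggGTCtgcCTG
ATR: TTTATTgaaGTCactTTATTAATGGTTCTT
The next 4 are of genes that were high in EVs, from the stretch with the most lysine codons, with the lysine codons AAA and AAG in capitals.
PPP1CB: atattgAAAccatctgaaAAGAAAgctAAA
IQGAP2: AAAgaactctgggatgccAAAAAGAAAAAA
RFK: tggaacccatattacAAGaatacgAAGAAG
EZR: AAAAAGtttgtcattAAAcccatcgacAAG
The ITGA2B run (exon 29 of 30, chr17:44374366-44374395, minus strand) had 8 of 10 codons with T in the middle. The TMEM154 run (exon 2 of 7, chr4:152652734-152652763, minus strand) had 9. The GANAB run starts at codon 18, where secretory proteins carry their signal peptide (exon 2 of 24, chr11:62639689-62639718, minus strand). ATR is a nuclear kinase with no membrane-spanning helix, so a hydrophobic window is not by itself a sign of a membrane protein (exon 4 of 47, chr3:142562763-142562792, minus strand). Among the lysine-rich runs, that of IQGAP2 had 5 lysine codons of 10 (exon 8 of 36, chr5:76590536-76590565, plus strand) and that of PPP1CB had 4 (exon 8 of 8, chr2:28799199-28799228, plus strand). The runs of EZR (exon 8 of 14, chr6:158776417-158776446, minus strand) and RFK (exon 2 of 4, chr9:76392424-76392453, minus strand) had 4 and 3. The genes are among the largest changes at 20 CPM or more described below, in order of size. CD46 was passed over because its most hydrophobic window holds no such run inside 1 exon. They are examples and not typical of their group in each feature: lysine made up 5.81% of PPP1CB and 6.62% of ATR, against a median of 7.61% in long genes that rose and 5.80% in those that fell.

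The isoform table gives 1 pooled level per isoform and no value per library, so changes were tested on the counts of the gene to which an isoform belongs. A gene counted as mainly long where long annotated productive isoforms made up at least 80% of the level of all its isoforms in the table. There were 989 such genes, and 859 had enough reads to be tested. The 130 not tested had a median of 3.5 reads over the EV and 29.5 reads over the WC libraries, and 34 of them had no read in any EV library. Gene counts held more than the long isoforms: the level of a gene's isoforms in the table was 33.8% of the gene's normalized count in the median mainly long gene (quartiles 18.7% and 64.3%). A gene's count can thus include fragments and unlisted isoforms, and what part of it is the long isoform in EVs was not tested.

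Total gene counts were 560157 to 881338 in EV libraries and 2480560 to 3178211 in WC libraries, and 12891 to 14263 genes had a read in an EV library, against 21997 to 23874 in a WC library. Levels are given as CPM (reads scaled to a common library size with TMM factors). They are relative to all other RNA of the library, and fewer vesicles with an mRNA cannot be told apart from less of it per vesicle. All 10 K562 markers, among them fetal globins and GATA1, had reads in both groups, with a summed level of 403 to 472 CPM of total counts in EV and 301 to 364 in WC libraries. Of 19 markers of other cell types, 13 had no read in EVs and 7 none in WC. Their summed level was 44.3 to 78.5 CPM of total counts in EV and 119 to 167 in WC libraries, mostly from EPCAM and CD3D. The part of these markers in the results was not tested.

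Long genes took a smaller share of the reads in EVs. The 989 mainly long genes held 2.17%, 2.04% and 1.94% of the counts in the EV libraries, against 3.28%, 3.70% and 3.95% in the WC libraries. The groups did not overlap. The means were 2.05% ± 0.11 in EVs and 3.64% ± 0.34 in WC (SD, n = 3 each), a difference of -1.59 percentage points (exact permutation test, two-sided, p = 0.1, the minimum for 3 libraries in each group). Long isoforms were 24.8% of the annotated productive isoforms by number but 4.33% of their pooled level, with a median level of 6.73 normalized reads per isoform, against 13.6 for the 3994 shorter ones.

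Of the 859 mainly long genes tested, 81 (9.43%) rose in EVs and 215 (25.03%) fell at an adjusted p under 0.05 (quasi-likelihood test of edgeR, Benjamini-Hochberg adjustment over all genes). Over all 8716 genes tested, 22.8% rose and 21.4% fell. Over the 4059 protein-coding genes with an isoform in the table, 18.7% rose and 20.2% fell. The median log2 fold change was -0.32 in mainly long genes and -0.13 over all genes. The split between rises and falls depends on the scaling: with total counts in place of TMM the median of all genes was -0.78, and 26 mainly long genes rose while 517 fell. Without WC replicate 1 there were 52 rises and without WC replicate 2 there were 48, among 722 and 716 genes tested. A stricter criterion was a log2 fold change of at least 2 either way and an adjusted p of at most 0.01. By it, 7 of the 859 mainly long genes were EV-enriched and 47 WC-enriched. Of all 8716 genes, 395 (4.53%) and 517 (5.93%) were. The WC-enriched share of mainly long genes was thus close to that of all genes, and the EV-enriched share was lower. All 3 EV libraries lay above all 3 WC libraries in 104 of the 859 mainly long genes, and below them in 302. Of all 8716 genes, 2173 (24.9%) lay above and 2637 (30.3%) below.

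The median log2 fold change was lower in longer classes up to about 2000 nt, and little changed from there to 4000 nt. The median log2 fold change was 0.67 for the 382 coding genes whose isoforms averaged under 750 nt and 0.19 for those of 750 to 1000 nt. It was 0.0078 for the 731 genes of 1000 to 1500 nt, and -0.24, -0.22, -0.24 and -0.19 in the classes that begin at 1500, 2000, 2500 and 3000 nt. It was -0.47 from 4000 to 5000 nt and -0.55 at 5000 nt or more, where 22 of 323 genes rose and 117 fell. The spread within a class was larger than the step between classes: at 3000 to 4000 nt the quartiles were -0.81 and 0.32. Total-count scaling lowers all these medians together, and the difference between genes of 2500 nt or more and shorter genes was -0.38 with either scaling.

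**Figure D1:**
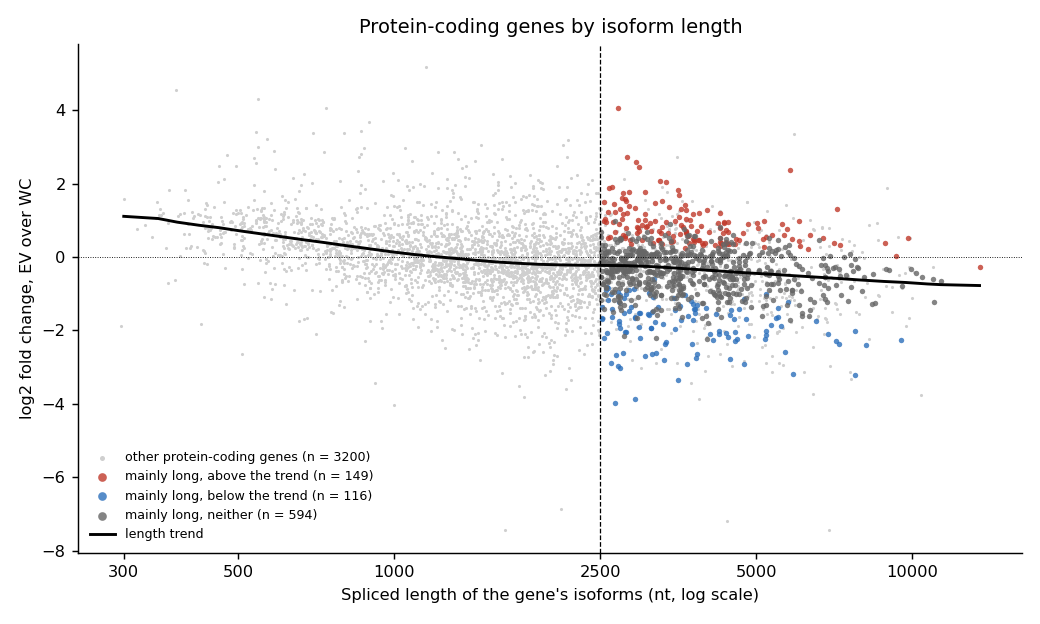
Log2 fold change (EV over WC) of 4059 protein-coding genes against the spliced length of their isoforms (nt, log axis). Points are genes, the line is the fitted length trend, and the dashed line marks 2500 nt. Of the 859 mainly long genes, 149 lay above the trend (red) and 116 below it (blue). Over all 4059 coding genes 18.7% lay above and 15.6% below, so both shares of the mainly long genes were slightly lower.

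Each gene was therefore also compared with coding genes of its length. In that fit a smooth curve on length, of each gene's level relative to its own mean, was taken out of each library. A value of 0 thus means the change from WC to EV usual for that length. It does not describe how high the level in EVs is. Among the 859 mainly long genes, 149 were above the trend and 116 below it, with a median of 0.05. Over all 4059 coding genes, 760 (18.7%) were above and 634 (15.6%) below, so both shares were slightly lower in mainly long genes. All 81 genes that rose were among the 149, and the other 68 had not passed the test before the length was taken out. Of the 215 genes that fell, 116 were also below the trend and 99 were not. Taking out the length raises the values of long genes, so this overlap of calls is largely set by the fit. Among the 152 mainly long genes of 5000 nt or more, 8 rose and 44 fell, while 25 were above the trend and 20 below it. With total-count scaling 138 genes were above the trend and 122 below it.

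The 12 mainly long genes with the largest rises, among those with at least 20 CPM and no overlap of the EV and WC libraries, were PPP1CB, IQGAP2, RFK, EZR, PABPC1, MAK16, NET1, ESF1, RAD21, ZRANB2, USP16 and AZIN1. PPP1CB, a catalytic subunit of protein phosphatase 1 (ENSG00000213639, chr2:28751640-28802940), had 117, 64.8 and 50.2 CPM in EVs, against 10.3, 11.998 and 18.0 CPM in WC. Its log2 fold change was 2.58 ± 0.28 (SE, adjusted p = 1.09e-07, edgeR). Its only listed isoform, of 2927 nt, accounted for 5.41% of the gene's normalized count. IQGAP2, a scaffold that binds actin and calmodulin (ENSG00000145703, chr5:76403285-76708132), had 141, 127 and 103 CPM in EVs, against 17.2, 29.6 and 25.3 CPM in WC. Its log2 fold change was 2.36 ± 0.22 (adjusted p = 2.49e-09, edgeR), and 2.87 ± 0.21 relative to the length trend. At 5808 nt it was the longest of the 12, and its isoform accounted for 16.5% of the gene's count.

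EZR and NET1 were also among the 12. EZR encodes ezrin, which ties actin filaments to the plasma membrane (chr6:158765741-158819368), and it had 49.4, 55.5 and 50.2 CPM in EVs, against 15.1, 12.3 and 18.0 CPM in WC. The rise was 1.77 ± 0.25 (adjusted p = 2.03e-06, edgeR), and here the listed isoforms accounted for 71.0% of the gene's count. NET1, an activator of the GTPase RHOA whose mRNA is known from cell protrusions (chr10:5412557-5459056), had 137, 150 and 146 CPM in EVs, against 46.4, 50.035 and 52.4 CPM in WC. The EV libraries differed from each other by far less than from WC, and the log2 fold change was 1.54 ± 0.18 (adjusted p = 1.37e-07, edgeR). Relative to the length trend it was 1.81 ± 0.16. Its isoforms accounted for 11.1% of the gene's count.

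The 12 also held PABPC1, MAK16, ESF1 and ZRANB2. PABPC1, the cytoplasmic poly(A)-binding protein, had 204, 259 and 263 CPM in EVs, against 64.9, 68.7 and 78.8 CPM in WC (log2 fold change 1.76 ± 0.18, adjusted p = 1.05e-08, edgeR). GENCODE names 13 pseudogenes after PABPC1, and reads of such copies cannot be told apart from its own here. MAK16, a factor of large-subunit ribosome assembly known from yeast, had 43.9, 48.6 and 50.2 CPM in EVs, against 16.8, 12.3 and 14.8 CPM in WC. Its log2 fold change was 1.69 ± 0.25 (adjusted p = 4.27e-06, edgeR). ESF1, a nucleolar protein needed for ribosomal RNA processing in yeast, had 89.2, 94.8 and 86.7 CPM in EVs, against 27.1, 34.2 and 36.1 CPM in WC. Its log2 fold change was 1.47 ± 0.20 (adjusted p = 1.76e-06, edgeR), and 14.6% of its residues were lysine. ZRANB2, a zinc finger protein of splicing, had 54.9, 74.0 and 91.3 CPM in EVs, against 20.6, 32.7 and 27.6 CPM in WC (log2 fold change 1.39 ± 0.24, adjusted p = 3.31e-05, edgeR).

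RFK, riboflavin kinase, had 43.9, 34.7 and 25.1 CPM in EVs, against 11.3, 7.15 and 11.1 CPM in WC, with a log2 fold change of 1.88 ± 0.30 (adjusted p = 1.35e-05, edgeR). GENCODE names 6 pseudogenes after it. RAD21, a cohesin subunit, averaged 53.4 ± 13.1 CPM in EVs and 19.1 ± 4.0 CPM in WC (SD, n = 3 each), a log2 fold change of 1.42 ± 0.26. USP16, a deubiquitinase of histone H2A, averaged 36.0 ± 9.5 CPM in EVs and 14.0 ± 2.6 CPM in WC. AZIN1, an inhibitor of antizyme, averaged 30.6 ± 4.8 CPM in EVs and 12.7 ± 0.69 CPM in WC. None of the 12 encoded a hydrophobic window as defined further on, against 13.8% of all mainly long genes that rose. IQGAP2 came just under the limit, at 1.595 against 1.6.

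**Figure D2:**
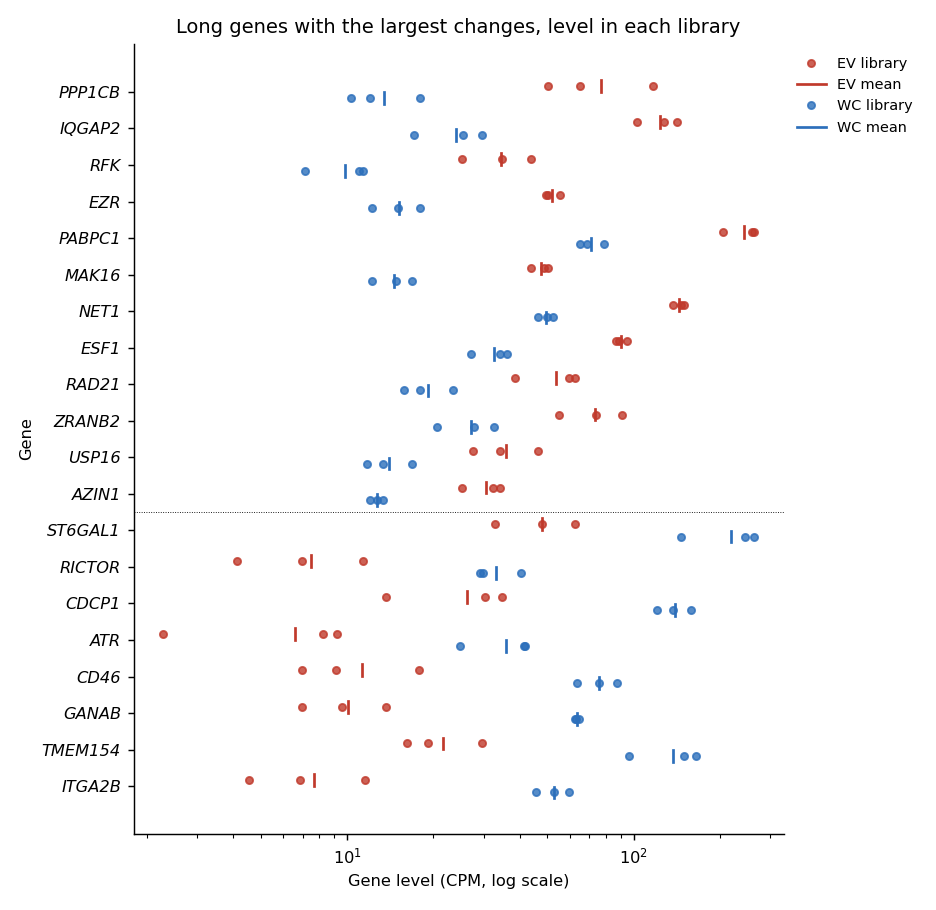
Level of 20 mainly long genes in each library (CPM, log axis): the 12 with the largest rises above the dotted line and the 8 with the largest falls below it. Red points are EV libraries and blue points WC libraries, and short bars are group means. Genes were chosen for EV and WC points that do not overlap, and the log2 fold change runs from 2.58 in PPP1CB to -2.80 in ITGA2B.

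Several further genes were named after their values were seen, since they passed the stricter criterion for EV enrichment at a low level. CPOX, an enzyme of haem synthesis, had 31.5, 23.1 and 18.3 CPM in EVs, against 1.03, 2.30 and 0.873 CPM in WC (log2 fold change 4.07 ± 0.43). SSRP1, a subunit of the histone chaperone FACT, averaged 33.8 ± 10.3 CPM in EVs and 4.89 ± 1.08 CPM in WC (2.71 ± 0.34). IWS1, a partner of the elongating RNA polymerase, averaged 27.6 ± 7.1 CPM in EVs and 4.98 ± 0.15 CPM in WC (2.45 ± 0.34). The other EV-enriched genes were PPM1B (2.07 ± 0.36), CD2BP2 (2.04 ± 0.48), PPP1CB and IQGAP2. CPOX was the only one of the 7 with a hydrophobic window, with IQGAP2 just under the limit.

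The 8 largest falls, with the same mean of 20 CPM over the 6 libraries and no overlap, were ITGA2B, TMEM154, GANAB, CD46, ATR, CDCP1, RICTOR and ST6GAL1. ITGA2B, the platelet integrin subunit alpha IIb (chr17:44372180-44389649), had 6.86, 11.6 and 4.57 CPM in EVs, against 45.7, 52.8 and 59.6 CPM in WC. Those EV levels rest on 5, 5 and 2 reads. The log2 fold change was -2.80 ± 0.34 (adjusted p = 2.59e-07, edgeR). TMEM154, a single-pass membrane protein (chr4:152618628-152680012), had 19.2, 16.2 and 29.7 CPM in EVs, against 96.2, 150 and 165 CPM in WC. Its log2 fold change was -2.68 ± 0.28 (adjusted p = 1.83e-08, edgeR). GANAB, the catalytic subunit of the ER enzyme glucosidase II, had 9.60, 6.94 and 13.7 CPM in EVs, against 62.9, 64.3 and 62.5 CPM in WC (log2 fold change -2.65 ± 0.30, adjusted p = 7.82e-08, edgeR). Within WC its 3 libraries hardly differed, while its EV levels rest on 7, 3 and 6 reads.

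CD46, a complement regulator of the cell surface, had 17.8, 6.94 and 9.13 CPM in EVs, against 63.2, 87.3 and 75.9 CPM in WC. Its log2 fold change was -2.61 ± 0.31 (adjusted p = 1.33e-07, edgeR), on 13, 3 and 4 reads in EVs. CDCP1, a transmembrane glycoprotein, averaged 26.2 ± 11.1 CPM in EVs and 139 ± 19 CPM in WC (SD, n = 3 each), with a log2 fold change of -2.38 ± 0.25. ST6GAL1, a sialyltransferase of the Golgi, averaged 47.8 ± 14.8 CPM in EVs and 218 ± 63 CPM in WC (-2.24 ± 0.26). The other two of the 8 were ATR and RICTOR. ATR, the DNA damage kinase, had 8.23, 9.25 and 2.28 CPM in EVs, against 24.7, 41.4 and 41.9 CPM in WC. RICTOR, a subunit of the kinase complex mTORC2, had 4.12, 6.94 and 11.4 CPM in EVs, against 29.9, 29.1 and 40.4 CPM in WC. In EVs ATR had 6, 4 and 1 reads and RICTOR 3, 3 and 5 reads. At 8156 and 9523 nt these were the longest of the 8, and both stayed below the length trend, by -1.75 ± 0.41 in ATR and -1.56 ± 0.38 in RICTOR.

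The members were also counted in lists by known function. These counts are to be read against the 9.43% of all mainly long genes that rose and the 25.03% that fell. Counts with total-count scaling are to be read against 26 rises and 517 falls among all 859 mainly long genes with that scaling. Long mRNAs of receptors, adhesion molecules and lysosome membrane proteins fell in 5 of 6 tested genes and rose in none, with a median log2 fold change of -1.37 (6 falls with total-count scaling). The 5 were ITGA2B, CD46, ITGB1, SORT1 and APLP2. ITGB1, the integrin beta 1 subunit, had 39.8, 30.1 and 38.8 CPM in EVs, against 85.2, 117 and 131 CPM in WC (-1.596 ± 0.235, adjusted p = 4.44e-06, edgeR). SORT1, a sorting receptor of the Golgi and endosomes, had 63.1, 71.7 and 70.8 CPM in EVs, against 138, 147 and 165 CPM in WC (-1.14 ± 0.19). In both genes the groups were well apart.

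Solute carriers and ion pumps fell in 4 of 9 and rose in none (median -0.94; 7 falls with total-count scaling), and all 9 encoded a hydrophobic window. SLC38A1, a glutamine transporter, averaged 44.8 ± 6.8 CPM in EVs and 120 ± 23 CPM in WC (-1.40 ± 0.22). Its relative SLC38A2 averaged 37.8 ± 11.3 CPM in EVs and 57.7 ± 7.4 CPM in WC, which did not pass the test (-0.57 ± 0.24, adjusted p = 0.054, edgeR), but did without EV replicate 1 or WC replicate 1 (adjusted p = 0.017 and 0.021, edgeR). Sterol and fatty acid genes fell in 6 of 11 and rose in none (median -0.78; 9 falls with total-count scaling), with NPC1, DHCR7, SQLE and ACACA among those that fell. SQLE, an enzyme of sterol synthesis, averaged 48.5 ± 4.8 CPM in EVs and 74.6 ± 18.1 CPM in WC (-0.61 ± 0.23, adjusted p = 0.034, edgeR). With DESeq2 the adjusted p of SQLE was 0.070 and that of ACACA 0.055. With the replicate number as a block that of SQLE was 0.051 (edgeR), and without EV replicate 2, EV replicate 3 or WC replicate 3 it was 0.11, 0.082 and 0.11 (edgeR). SCD, the stearoyl-CoA desaturase, averaged 86.1 ± 16.4 CPM in EVs and 103 ± 9 CPM in WC and did not pass the test.

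No long mRNA of the spliceosome, hnRNP and RNA helicase list fell, and 4 of 12 rose (median 0.40), with DHX9, DDX18 and SFPQ among them. With total-count scaling this list turned round, with 1 rise, 4 falls and a median of -0.25, against a median of -0.78 over all genes. Relative to the length trend 6 of the 12 were above and none below. DHX9, an RNA helicase, had 63.1, 64.8 and 57.1 CPM in EVs, against 30.2, 26.8 and 24.4 CPM in WC (1.19 ± 0.22). DDX6, a helicase of mRNA storage and decay, had 1045, 624 and 626 CPM in EVs, against 626, 583 and 578 CPM in WC. It did not pass the test (0.37 ± 0.17, adjusted p = 0.078, edgeR), and its groups overlapped. NONO, an RNA-binding protein of paraspeckles, averaged 194 ± 23 CPM in EVs and 215 ± 15 CPM in WC (-0.16 ± 0.17).

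Translation factors rose in 3 of 6 and fell in 1 (2 and 2 with total-count scaling). Beside PABPC1 these were ABCE1, the ribosome recycling factor (1.83 ± 0.39), and EIF3B, a scaffold of initiation factor eIF3 (1.22 ± 0.29). EEF2, the elongation factor of ribosome translocation, went the other way, with 674, 541 and 473 CPM in EVs, against 933, 831 and 811 CPM in WC (-0.60 ± 0.15, adjusted p = 0.0018, edgeR). EIF3C averaged 276 ± 62 CPM in EVs and 300 ± 35 CPM in WC and did not pass the test. Chaperones were divided, with 2 rises and 2 falls among 6 (0 and 3 with total-count scaling). HSP90AB1, the constitutive HSP90, had 1218, 1117 and 1119 CPM in EVs, against 878, 809 and 748 CPM in WC (0.50 ± 0.13, adjusted p = 0.0031, edgeR), and -0.15 with total-count scaling. HSPH1 also rose (0.82 ± 0.27). DNAJC10 and HSPA13, which act in the ER, fell (-1.02 ± 0.32 and -1.24 ± 0.43). HSPA4 had nearly equal levels, with 94.9 ± 9.0 CPM in EVs and 91.5 ± 4.3 CPM in WC (0.05 ± 0.19).

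Nuclear transport genes fell in 7 of 17 and rose in 1 (11 and 0 with total-count scaling). The 7 included the membrane-anchored nucleoporins NDC1 (-2.05 ± 0.43), NUP210 (-2.28 ± 0.38) and POM121 (-3.19 ± 0.74). NUP160, TNPO3, XPO1 and XPO7 fell too, so the falls were not confined to membrane-anchored members. POM121 had 1.37, 0 and 2.28 CPM in EVs, against 15.8, 8.68 and 11.9 CPM in WC. The soluble import receptor IPO7 was the one that rose (0.80 ± 0.22), but not with total-count scaling (0.14, adjusted p = 0.61, edgeR). XPO1, the main export receptor, had 45.3, 76.3 and 59.4 CPM in EVs, against 74.5, 105 and 136 CPM in WC (-0.84 ± 0.24, adjusted p = 0.0068, edgeR), and its groups overlapped. NUP107, a scaffold nucleoporin, could not be placed. It had 366, 32.4 and 27.4 CPM in EVs, against 157, 49.3 and 86.4 CPM in WC, and its log2 fold change was 0.68 ± 1.10 with all libraries and -1.73 without EV replicate 1.

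Chromatin genes fell in 4 of 11 and rose in none (median -0.55; 9 falls with total-count scaling). DNMT1, the maintenance DNA methyltransferase, had 65.8, 81.0 and 82.2 CPM in EVs, against 158, 160 and 136 CPM in WC (-1.001 ± 0.191, adjusted p = 1.3e-04, edgeR). The others were KDM3B, KDM5B and KDM5C, which are histone demethylases, and KDM3B and KDM5C did not pass with DESeq2 (adjusted p = 0.066 and 0.081). SMARCC1, a subunit of SWI/SNF remodellers, averaged 87.3 ± 24.3 CPM in EVs and 67.6 ± 5.8 CPM in WC and did not pass the test, but lay above the length trend (0.81 ± 0.19, adjusted p = 0.0027, edgeR; 0.062 without EV replicate 1). Mitosis and replication genes fell in 3 of 16 (ATR, NCAPG2, NCAPH) and rose in 1 (CENPF), and with total-count scaling 10 fell and none rose. ER and Golgi genes fell in 3 of 12 (GANAB, SEC24C, COPA), the same share as among all mainly long genes, and in 8 with total-count scaling. COPA, a subunit of the COPI coat, had 71.3, 53.2 and 18.3 CPM in EVs, against 92.4, 115 and 94.2 CPM in WC, and SEC23A of the COPII coat had 27.4, 134 and 93.6 CPM in EVs, against 60.1, 80.7 and 92.2 CPM in WC. The EV libraries of both genes were widely spread, and SEC23A did not pass the test (0.03 ± 0.49).

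In the cytoskeleton and motor list 1 of 11 rose and 2 fell, and total-count scaling gave 1 rise and 9 falls. The related scaffolds IQGAP2 and IQGAP1 went opposite ways: IQGAP1 had 20.6, 18.5 and 25.1 CPM in EVs, against 40.9, 36.5 and 38.4 CPM in WC (-0.85 ± 0.26, adjusted p = 0.011, edgeR). Relative to the length trend IQGAP1 did not pass the test (-0.29, adjusted p = 0.43, edgeR). VCL, vinculin, fell as well (-0.88 ± 0.22). TLN1, talin, averaged 62.4 ± 9.6 CPM in EVs and 86.0 ± 3.8 CPM in WC (-0.46 ± 0.20, adjusted p = 0.063, edgeR). Signalling kinases rose in 1 of 9 and fell in 2 (0 and 4 with total-count scaling). Those that fell were CDK12 and GAB2 (-2.03 ± 0.35 and -1.65 ± 0.31). CSNK2A1, a catalytic subunit of casein kinase 2, averaged 38.7 ± 4.2 CPM in EVs and 52.3 ± 4.3 CPM in WC and did not pass the test.

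Among genes of RNA decay and UTR binding UPF2 rose, IGF2BP3 fell (-2.02 ± 0.41) and 6 of 8 did neither (0 rises and 3 falls with total-count scaling). UPF2, a factor of nonsense-mediated decay, had 115, 162 and 146 CPM in EVs, against 89.0, 95.5 and 90.7 CPM in WC (0.60 ± 0.18, adjusted p = 0.0088, edgeR). The call was lost without WC replicate 2 and without EV replicate 2 (adjusted p = 0.051 and 0.074, edgeR). Of the tRNA synthetases IARS1 fell (-1.45 ± 0.20), and LARS1 had similar means of 96.0 ± 30.5 CPM in EVs and 92.5 ± 15.8 CPM in WC. Of 4 erythroid regulators only RUNX1 passed the test (-1.21 ± 0.33), against 3 falls with total-count scaling, while GATA2 averaged 16.4 ± 4.3 CPM in EVs and 26.5 ± 2.4 CPM in WC and ANK1 18.8 ± 9.0 CPM in EVs and 25.6 ± 4.6 CPM in WC. Of 10 ubiquitin genes 1 fell (UBE4A) and none rose, and 7 fell with total-count scaling. UBE4A did not pass with DESeq2 (adjusted p = 0.069). UBA1, the main ubiquitin-activating enzyme, averaged 35.5 ± 4.9 CPM in EVs and 47.3 ± 4.9 CPM in WC, and USP10 averaged 31.6 ± 1.5 CPM in EVs and 43.2 ± 5.4 CPM in WC. Genes given beside the 2 with the most reads in each list were chosen after their values were seen.

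Several calls were lost when a library was left out or another method was used. DESeq2 called 70 of the 81 rises and 160 of the 215 falls and no other mainly long gene, and SFPQ had an adjusted p of 0.056 there. With total-count scaling EIF3B, DDX18, HSPH1, SFPQ, HSP90AB1, DEK and UPF2 lost their calls as well as IPO7 and CENPF. Of the 12 largest rises all stayed called. With that scaling the log2 fold change was 1.70 in IQGAP2 and 0.64 to 1.22 in the 10 genes other than PPP1CB and IQGAP2. Conversely GLUL, EIF3C, LARS1, HSPA4, NONO, MAP1B, TLN1, SCD, SLC38A2, UBA1, USP10, CSNK2A1, ANK1 and GATA2 fell there. Among the 6 fits with 1 library left out, SFPQ kept its call only in the one without WC replicate 3, although its log2 fold change was 0.34 to 0.47 in the others, against 0.47 with all libraries. EIF3B and NCAPH lost theirs without EV replicate 1, HSPH1 without EV replicate 1 or WC replicate 1, IPO7 without WC replicate 2, APLP2 and DNAJC10 without EV replicate 2, and ACACA without EV replicate 1 or 3. KDM3B, HSPA13 and UBE4A lost theirs without EV replicate 2 or 3, and without EV replicate 1 their log2 fold changes were -1.67, -2.25 and -2.44, against -1.04, -1.24 and -1.31 with all libraries. KDM5C lost its call without EV replicate 2 or 3 or WC replicate 2, and with the block (adjusted p = 0.053, edgeR). COPA was -1.53 without EV replicate 1, against -1.002 with all libraries. Conversely, DDX6 passed without EV replicate 2 or 3, SMARCC1 without EV replicate 3, TLN1 without WC replicate 1 or 3, and SEC23A without EV replicate 1, with adjusted p-values of 0.044 to 0.049 (edgeR).

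**Figure D3:**
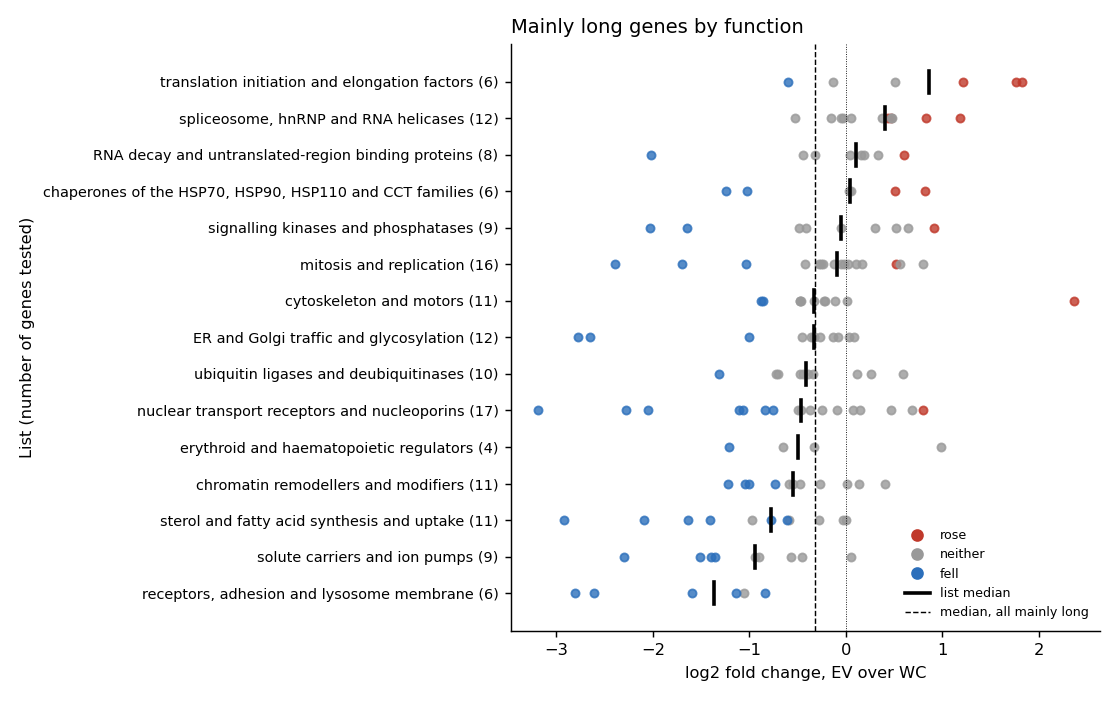
Log2 fold change (EV over WC) of mainly long genes in 15 lists by function, each with at least 4 tested genes (number in parentheses). Points are genes that rose (red), fell (blue) or did neither (grey), black bars are list medians, and the dashed line is the median of all mainly long genes (-0.32). List medians ran from 0.86 in translation factors to -1.37 in receptors, adhesion and lysosome membrane genes, and from 0.21 to -2.03 with total-count scaling, where the median of the spliceosome list is negative.

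Among mainly long genes with at least 20 CPM in EVs, the 5 with the longest isoforms were PRKDC (13490 nt), BRWD1 (10962 nt), RIF1 (10169 nt), USP9X (9946 nt) and CENPF (9811 nt). PRKDC, the DNA-dependent protein kinase, had 65.8, 102 and 121 CPM in EVs, against 106, 119 and 116 CPM in WC. It did not pass the test (-0.28 ± 0.20, adjusted p = 0.28, edgeR), but its change was above that usual for its length (0.50 ± 0.17, adjusted p = 0.023, edgeR). That call was lost without EV replicate 3 and without each WC replicate in turn (adjusted p = 0.074 to 0.20, edgeR). With total-count scaling PRKDC fell (-0.94, adjusted p = 4.8e-04, edgeR). CENPF, a kinetochore protein, had 82.3, 92.5 and 107 CPM in EVs, against 63.2, 64.8 and 66.3 CPM in WC. It rose (0.52 ± 0.19, adjusted p = 0.028, edgeR), though the call held with 1 library left out only without EV replicate 1 and the adjusted p was otherwise 0.069 to 0.15 (edgeR). Relative to the trend it rose by 1.21 ± 0.17. With total-count scaling its value was -0.14.

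MAP1B, a microtubule-associated protein with an isoform of 9292 nt, had 90.5, 92.5 and 91.3 CPM in EVs, against 102, 73.8 and 96.0 CPM in WC, and lay above the trend (0.68 ± 0.19, adjusted p = 0.0080, edgeR; 0.094 without WC replicate 2). USP9X, a deubiquitinase, averaged 29.2 ± 10.3 CPM in EVs and 35.8 ± 5.0 CPM in WC. RIF1, a factor of replication timing, averaged 34.0 ± 7.2 CPM in EVs and 45.4 ± 4.7 CPM in WC. BRWD1, a bromodomain protein, averaged 22.7 ± 7.5 CPM in EVs and 32.5 ± 5.3 CPM in WC. None of these last 3 passed either test, while BRWD1 passed the first without WC replicate 1 (adjusted p = 0.029, edgeR). With total-count scaling all 3 fell, by -0.995 in USP9X, -1.07 in RIF1 and -1.26 in BRWD1 (adjusted p = 0.0037, 7.1e-04 and 0.0011, edgeR).

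By read number the leading mainly long genes in EVs were HSP90AB1, DDX6, GLUL, EEF2 and DEK. GLUL, glutamine synthetase, had 444, 784 and 788 CPM in EVs, against 594, 664 and 781 CPM in WC, so its groups overlapped (-0.03 ± 0.18). DEK, a chromatin protein in which 17.9% of residues are lysine, had 365, 402 and 363 CPM in EVs, against 243, 248 and 274 CPM in WC (0.56 ± 0.15, adjusted p = 0.0042, edgeR). The adjusted p was 0.055 without WC replicate 2, and the log2 fold change was -0.10 with total-count scaling. These numbers count reads and are not levels per length.

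What the long mRNAs shared was read from hg38 through their models, for the most abundant long isoform of 857 mainly long genes. These features were looked at after the fold changes were known and are given as descriptions. A protein was said to have a hydrophobic window where 19 residues in a row averaged at least 1.6 on the Kyte-Doolittle scale, a customary mark of a possible membrane helix. Of the genes that fell, 104 of 215 (48.4%, exact binomial 95% interval 41.5% to 55.3%) had one. Of those that did neither 25.8% had one, and of those that rose 11 of 80 (13.8%, 7.07% to 23.3%). The intervals cover counting error only and are no test between the groups, since genes are not independent replicates. Read the other way, 104 of the 260 genes with a window fell and 11 (4.23%) rose, while 18.6% of the 597 genes without one fell and 11.6% rose. The median log2 fold change was -0.76 with a window and -0.18 without (-1.40 and -0.83 with total-count scaling). Of the 47 WC-enriched long genes, 28 had a window.

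The difference was seen in each length class. From 2500 to 3000 nt the median was -0.79 with a window and -0.16 without. From 3000 to 4000 nt it was -0.79 and -0.07, from 4000 to 5000 nt -0.76 and -0.12, and at 5000 nt or more -0.60 and -0.38. For comparison, the 315 genes of 2000 to 2500 nt without a window had a median of -0.15. Coding genes with no long isoform were split likewise: 190 of 372 that fell had a window (51.1%), against 61 of 548 that rose (11.1%). The window was thus not particular to long mRNAs. With a stricter mean of at least 2.0 the shares among long genes were 33.5% of those that fell and 3.75% of those that rose.

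**Figure D4:**
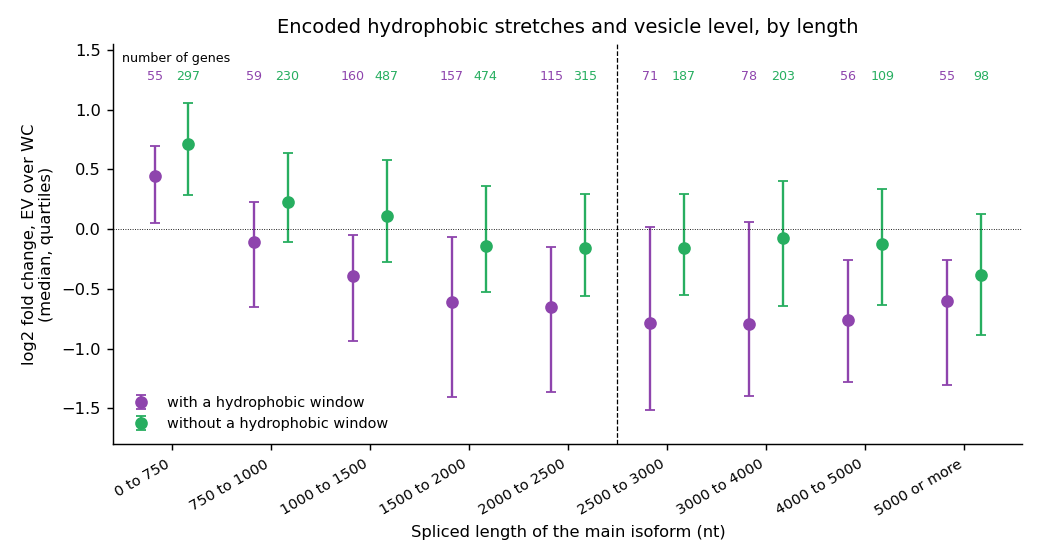
Median log2 fold change (EV over WC, bars are quartiles) by spliced length of the main isoform (nt), for genes with (purple) and without (green) an encoded hydrophobic window. Genes left of the dashed line have no long isoform and those right of it are mainly long, with the number of genes above each point. The median with a window lay below that without one in each of the 9 classes.

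Base and residue composition differed as well. Long genes that rose had a median of 7.61% lysine in the protein, against 5.80% in those that fell and 6.50% in the rest. Charged residues (aspartate, glutamate, lysine and arginine) made up 27.4% in genes that rose, against 23.0% in genes that fell. The coding part held 30.6% A in genes that rose, against 27.2% in genes that fell. The whole isoform held 41.2% G and C, against 46.6%. In coding genes with no long isoform, lysine was 7.97% in those that rose and 5.57% in those that fell. Charged residues were 27.7% and 22.3% there, A in the coding part 29.1% and 24.8%, and G and C 46.9% and 49.9%. The differences in composition were thus not particular to long mRNAs. Spearman's rho with the log2 fold change across the 857 genes was 0.31 for charged residues, 0.28 for A in the coding part, 0.26 for lysine, -0.21 for G and C, -0.31 for the highest hydropathy and -0.09 for spliced length. Genes are not independent replicates, and these features are tied to each other through base composition. Among the 597 genes without a hydrophobic window, the third with the most lysine had a median log2 fold change of 0.03 (36 rose and 29 fell), and the third with the least had -0.32 (14 rose and 49 fell).

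Genes that rose were long through their untranslated part more than through their coding part. Their median isoform had 3220 nt, with a coding part of 1316 nt and a 3′ UTR of 1608 nt, in 10 exons. Isoforms of genes that fell had 3675 nt, with a coding part of 2088 nt and a 3′ UTR of 1428 nt, in 15 exons. Across genes rho with the log2 fold change was -0.18 for the coding length and 0.04 for the 3′ UTR length. The letters ATTTA, searched on the sense strand with overlaps allowed, occurred 3.13 times per 1000 nt of 3′ UTR in genes that rose, against 1.77 times in genes that fell, and G and C content differed between them as given above. The longest run of A in the coding part had a median of 6 and of 5 bases in the same groups.

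Reads from similar or overlapping genes bear on some of these values. GENCODE names a pseudogene after 154 of the 859 genes, among them 24 of the 81 that rose and 28 of the 215 that fell, and without the 154 genes 57 rose and 187 fell. Exons of a gene on the opposite strand overlap 369 of them, 44 that rose and 84 that fell, and without those 37 of 490 rose and 131 fell. Whether the counting used the strand is not given in the sources used here, so for genes such as IQGAP2, PPP1CB and EZR, which have such overlaps with F2RL2, PPP1CB-DT and EZR-AS1, the reads of the overlap cannot be told apart. Among the 538 genes whose listed isoforms reached at least 25% of the gene's count, 54 rose and 129 fell. With WC libraries thinned to the EV depth, 556 genes were testable in place of 859, and 42 rose and 159 fell. How much of the lower number of rises comes from the smaller number of genes tested was not tested.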

How the data were processed

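K562 EV and WC RNA was profiled in 3 libraries per group. The authors mapped reads to hg38 with minimap2 and counted them per GENCODE gene with featureCounts in long-read mode. Tests used the raw counts per gene that the authors deposited. Isoform models and productivity calls come from FLAIR. The deposited isoform level is the authors' normalized signal averaged over all 6 libraries. Columns of the authors' own comparisons (log2 fold changes, p-values) were left out. Of 68247 count lines, 46 repeated an ID and the first was kept.

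The gene test was the quasi-likelihood test of edgeR 4.0.16 under R 4.3.3 (TMM scaling, its expression filter with the group, robust fit, Benjamini-Hochberg adjustment over the 8716 genes kept). For the length trend, a lowess curve (fraction 0.5) of log2 CPM minus the gene mean on log10 length entered each library's fit as an offset, over 4059 coding genes. Gene length is the mean spliced length of the gene's isoforms weighted by level. Introns of the models were identical to those of GENCODE v44, but model ends are mostly set by reads, so a model's length is not the length of the reads counted. On data simulated from the mean levels of these genes, log2 changes of 1 and 2 were called in 55.2% and 97.0% of genes in the first fit. In the length-trend fit they were called in 57.6% and 96.0%. Of unchanged genes 0.05% and 0.16% were called. Every simulated gene had the same dispersion (0.018), so these rates do not cover genes whose libraries spread more widely, such as NUP107.

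The members, the gene lists and the features were chosen with earlier results of these data known. Named genes were the 12 largest rises and 8 largest falls without overlap of groups and with at least 20 CPM, the 5 with most EV reads, the 5 longest with at least 20 CPM in EVs, 2 genes per list with the most reads, and the 8 highest above the trend, 55 genes in all, and single values of some list members are not reported here. EV and WC libraries of a replicate shared a flow cell according to the study's methods, and after removal of group means the correlations of same-number libraries were 0.06, 0.02 and 0.00. The fit has no block, and a block was an alternative. The p-values cover the spread between the 3 libraries of a group, and binomial intervals cover counting error only. Other alternatives were DESeq2 1.42.0, scaling by RLE or by total counts, omission of the filter or a minimum mean of 5 reads, omission of each library, thinned WC libraries, other length and share limits, another length measure and another smoothing.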

Additional observations from a re-analysis of the deposited data

How the results depend on the processing

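The direction of the median change and the order of the groups in each share held in all alternatives, and 122 of 156 values for the comparisons and 631 of 715 for named genes kept their direction and side of the threshold, or moved little. With total-count scaling 26 mainly long genes rose and 517 fell (median -0.97), and 36.2% of those that fell had a hydrophobic window. With no filter 43 rose (median -0.53). With thinned WC libraries 42 rose, and the difference in median between genes with and without a window was -0.55. A limit of 4000 nt left 313 genes, of which 17 rose and 88 fell (median -0.44), with 49 above and 37 below the trend. The median was -0.30 with any share of long isoforms. Exon-union length gave a difference between long and shorter genes of -0.47. As single libraries were left out, 48 to 72 genes rose and 178 to 226 fell, the median was -0.38 to -0.32, 112 to 137 genes lay above and 85 to 114 below the trend, the difference by window was -0.58 to -0.52, and the share of reads differed by -1.78 to -1.44 points. With the replicate block 74 rose and 189 fell, with 141 above and 105 below the trend, and of the 55 genes named by rule only SQLE lost its call. Alternatives chosen after seeing the data gave 129 falls (median -0.36) where isoforms reached 25% of the gene level, a median of -0.38 and a difference by window of -0.53 without genes with pseudogene copies, 37 rises and 131 falls (median -0.39) without opposite-strand overlaps, 45 rises at a log2 fold change of at least 1, and 3.75%, 33.5% and a difference of -0.84 at a hydropathy of 2.0. Values that changed sign with total-count scaling were CENPF (-0.14), DDX6 (-0.27), DEK (-0.10), HSP90AB1 (-0.15), HSPA4 (-0.61), LARS1 (-0.66), MAP1B (-0.64), SEC23A (-0.64), SMARCC1 (-0.25) and UPF2 (-0.060). Near-zero values also did so with thinned WC libraries (HSPA4 -0.10, LARS1 -0.075, MAP1B -0.11, SEC23A -0.18), no filter (HSPA4 -0.16, LARS1 -0.21, MAP1B -0.19, SEC23A -0.19), a mean of 5 reads (LARS1 -0.0083) and the block (SEC23A -0.023). With a library left out EIF3C ran from -0.30 to 0.022, GLUL from -0.18 to 0.18, HSPA4 from -0.059 to 0.089, LARS1 from -0.23 to 0.25, MAP1B from -0.19 to 0.049, NUP107 from -1.73 to 1.15 and SEC23A from -0.50 to 0.51. The causes of these changes were not tested. EV depth limits genes of a few reads, such as ITGA2B.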
